A study of Homo sapiens with 12 samples.

Results

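The genes described here encode the core of the spindle assembly checkpoint, the control that holds a cell in mitosis until every chromosome is attached to spindle microtubules. The 8 members were BUB1, TTK, BUB1B, BUB3, MAD2L1, MAD1L1, TRIP13 and MAD2L1BP, taken from a table of 58174 genes as the rows whose GENCODE 29 symbol matched. All 8 were found, and all 8 passed the filter for testing (at least 1 FPKM in at least 2 of 12 libraries), which kept 13458 genes. Expression was measured by RNA sequencing in HCT116, an established human colorectal carcinoma cell line, after exposure to dolastatin 15, a peptide of marine origin that binds tubulin and blocks microtubule assembly. The deposited unit is FPKM, a fragment count divided by transcript length and by library total, so levels of different genes can be set side by side.

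Cells received 20 nM dolastatin 15 for 16 h (libraries 1, 2) or 24 h (libraries 7, 8), 100 nM for 16 h (libraries 3, 4) or 24 h (libraries 9, 10), or solvent alone for 16 h (libraries 5, 6) or 24 h (libraries 11, 12). DMSO stood at 0.25% and serum at 5% in every group, per the labels. Each of the 6 groups had 2 libraries, which the labels do not trace to separate cultures, so the p-values reflect only the spread between these libraries, and this may be technical. The FPKM sum per library was between 911720 and 1049886, and read depth is unknown. Mitochondrially encoded genes took 17.9% to 25.8% of that sum. Of 8 colon epithelial markers, 6 reached 1 FPKM, KRT20 and VIL1 did not, and the summed level was 1252 to 1454 FPKM. Leukocyte (4 genes) and endothelial (3 genes) markers all stayed under 1 FPKM, and of 5 fibroblast markers COL1A1 reached it, with a summed fibroblast level of 1.46 to 4.36 FPKM.

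At a kinetochore without microtubules, the kinase TTK (also known as MPS1) phosphorylates the scaffold KNL1, which then recruits BUB3 with BUB1 and BUB1B (the protein BUBR1). BUB1 helps to bring in a stable MAD1-MAD2 complex, encoded by MAD1L1 and MAD2L1, which acts as a template for converting free MAD2 into its closed form. Closed MAD2 binds CDC20 together with BUBR1 and BUB3, and this mitotic checkpoint complex inhibits the anaphase-promoting complex. The ATPase TRIP13 and its adaptor p31comet, encoded by MAD2L1BP, convert MAD2 back and take the complex apart. Drugs that depolymerise microtubules keep kinetochores unattached and the checkpoint active.

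The mRNAs of this pathway did not move as a block. BUB1 and BUB1B were higher than solvent at 16 h and lower than solvent at 24 h at both doses. BUB3 was lower at 16 h at both doses and at 24 h with 100 nM, TTK was lower in the same 3 comparisons, and MAD2L1 was higher with 100 nM at both times. TRIP13 passed the test in none of the 9 comparisons made. In RNA from whole cultures, fewer cells of a type (such as cells in mitosis) and less RNA per cell cannot be told apart.

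By count, with 20 nM at 16 h, 2 members rose and 2 fell, where 17.7% of all tested genes passed (6.78%, or 912 genes, higher and 1476 genes lower). The median log2 change was 0.14 over the members and -0.02 over all tested genes. With 100 nM at 16 h, 3 rose and 2 fell against 23.8% of all genes (9.16% higher and 14.7% lower), with medians of 0.17 and -0.03. With 20 nM at 24 h, 0 rose and 2 fell against 28.8% (14.7% higher and 14.1% lower), with medians of -0.15 and 0.00. With 100 nM at 24 h, 2 rose and 5 fell against 33.8% (15.4% higher and 18.4% lower), with medians of -0.29 and -0.02. At each time both doses were set against the same solvent libraries. The member count with 100 nM at 16 h was 3 without library 1, 2, 5, 9, 10, 11 or 12, and that with 100 nM at 24 h was 4 without library 9 and 3 without library 11. Among all genes called, the share that was higher depended on scaling: 38.2% against 50.5% with median-of-ratios scaling for 20 nM at 16 h, 38.5% against 49.3% likewise (27.7% on a common sum) for 100 nM at 16 h, 51.1% against 10.9% on a common sum for 20 nM at 24 h, and 45.6% against 23.5% on a common sum for 100 nM at 24 h. A call here is a Benjamini-Hochberg adjusted p under 0.05 over all tested genes in limma, and log2 changes are of FPKM + 1.

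**Figure D1:**
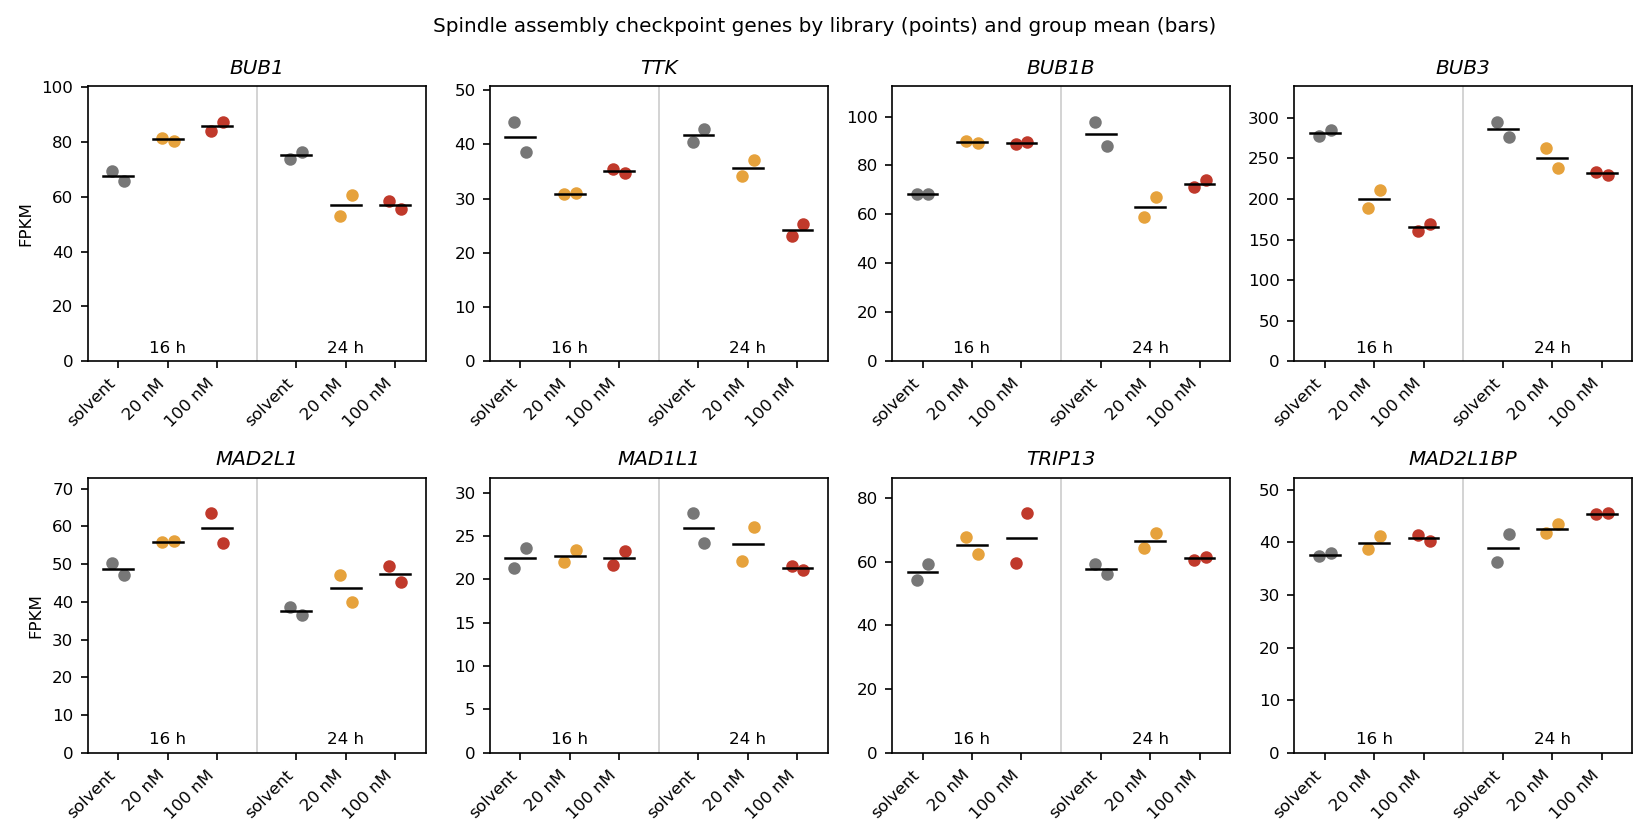
FPKM of the 8 checkpoint genes in each of the 12 libraries (points, 2 per group), with the group mean as a bar, for solvent, 20 nM and 100 nM at 16 h (left) and 24 h (right). BUB1 and BUB1B lie above solvent at 16 h and below it at 24 h, BUB3 and TTK lie below solvent, and MAD2L1 lies above it.

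BUB1, a kinetochore kinase and scaffold (ENSG00000169679, chromosome 2, 110637698 to 110678114, minus strand, GRCh38), was at 69.5 and 65.7 FPKM in solvent, 81.4 and 80.5 FPKM with 20 nM and 84.0 and 87.3 FPKM with 100 nM at 16 h. At 24 h it was at 73.8 and 76.4 FPKM in solvent, 53.1 and 60.7 FPKM with 20 nM and 58.4 and 55.4 FPKM with 100 nM. No treated library overlapped the solvent libraries of its own time, above them at 16 h and below them at 24 h. With 20 nM at 16 h BUB1 averaged 80.9 ± 0.622 FPKM against 67.6 ± 2.67 FPKM in solvent (SD, n = 2 each), a log2 change of 0.26 (SE 0.06, limma adjusted p = 0.0239). With 100 nM at 16 h the log2 change was 0.34 (SE 0.06, limma adjusted p = 0.00541). At 24 h the changes were -0.40 with 20 nM (SE 0.06, limma adjusted p = 0.00230) and -0.40 with 100 nM (SE 0.06, limma adjusted p = 0.00179), nearly equal at both doses. The effect at 24 h minus that at 16 h was -0.65 for 20 nM (SE 0.09, limma adjusted p = 0.00333) and -0.73 for 100 nM (SE 0.09, limma adjusted p = 0.00217). Leaving out library 1, 2, 5 or 6 ended the call of BUB1 for 20 nM at 16 h (limma adjusted p 0.0596 to 0.125), as did testing without a filter on low values (0.0560).

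BUB1B, the BUBR1 subunit of the mitotic checkpoint complex (ENSG00000156970, chromosome 15, 40161023 to 40221136, plus strand), was at 68.3 and 68.4 FPKM in solvent, 90.0 and 89.0 FPKM with 20 nM and 88.7 and 89.4 FPKM with 100 nM at 16 h. In the 24 h cultures it was at 97.8 and 88.1 FPKM in solvent, 59.1 and 67.3 FPKM with 20 nM and 71.0 and 74.0 FPKM with 100 nM. As with BUB1, treated and solvent libraries did not overlap at either time and the order turned round between them. Log2 changes at 16 h were 0.38 with 20 nM (SE 0.07, limma adjusted p = 0.00486) and 0.38 with 100 nM (SE 0.07, limma adjusted p = 0.00375). The largest decrease was at 24 h with 20 nM, to 63.2 ± 5.75 FPKM against 93.0 ± 6.84 FPKM in solvent (SD, n = 2 each), a log2 change of -0.55 (SE 0.07, limma adjusted p = 5.57e-04). With 100 nM at 24 h BUB1B fell by 0.35 on the log2 scale (SE 0.07, limma adjusted p = 0.00359). The difference between the times was -0.93 for 20 nM (SE 0.09, limma adjusted p = 0.00106) and -0.73 for 100 nM (SE 0.09, limma adjusted p = 0.00245). The calls of BUB1B against solvent and between times held under every alternative run, and so did those of BUB1 at 24 h, between times and for 100 nM at 16 h. BUB1B-PAK6, a readthrough gene that overlaps the end of BUB1B, was at 0 to 1.38 FPKM.

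Part of the BUB1B reversal lay in the controls. Solvent cultures themselves had more BUB1B at 24 h (93.0 ± 6.84 FPKM) than at 16 h (68.4 ± 0.0212 FPKM, SD, n = 2 each), a log2 change of 0.44 (SE 0.07, limma adjusted p = 0.0135), which was not called without library 5, 6 or 11 (0.0586 to 0.0918). Between solvent groups 5.62% of all tested genes passed (3.14% higher and 2.47% lower at 24 h, a share of 56.0% higher that was 82.1% on a common sum and 39.6% with median-of-ratios scaling), and the members that passed were BUB1B, higher, and MAD2L1, lower. In the order of BUB1B group means, 24 h solvent was highest and overlapped both 16 h drug groups. For BUB1 the 16 h drug groups were above every solvent and 24 h library, the 24 h solvent libraries came next, and the lowest groups, 20 nM and 100 nM at 24 h, overlapped each other.

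BUB1 and BUB1B had the most alike profiles of the 28 pairs of members: the root mean square difference of their centred log2 values over 12 libraries was 0.130, against 0.482 for the most unlike pair, BUB3 and MAD2L1. Stretches of RefSeq's promoter windows (GRCh38.p14) around the annotated starts of BUB1 and BUB1B are given because these members moved together, and that of MAD2L1 for contrast. Each runs from 100 bases before the start to 30 after it, 5′ to 3′ on the gene's strand. Capitals mark the CHR letters TTTGAA, an element of many G2 and mitosis genes, and the CCAAT box, read on either strand (ATTGG is CCAAT on the other strand).
BUB1, chr2:110678034-110678163, minus strand: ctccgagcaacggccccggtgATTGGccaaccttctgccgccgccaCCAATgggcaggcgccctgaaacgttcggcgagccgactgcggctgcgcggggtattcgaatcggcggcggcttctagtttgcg
BUB1B, chr15:40160969-40161098, plus strand: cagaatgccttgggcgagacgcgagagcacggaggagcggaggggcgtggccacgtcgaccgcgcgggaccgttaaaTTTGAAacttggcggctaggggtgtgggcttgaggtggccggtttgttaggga
MAD2L1, chr4:120066819-120066948, minus strand: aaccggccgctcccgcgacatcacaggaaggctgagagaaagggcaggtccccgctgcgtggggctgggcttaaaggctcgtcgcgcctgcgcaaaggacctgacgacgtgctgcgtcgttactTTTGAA

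Positions count from the RefSeq start, which for BUB1, BUB1B and MAD2L1 is not the same base as the start of the gene span printed with each. BUB1B held TTTGAA at -23 to -18 and MAD2L1 at 25 to 30, while BUB1 held CCAAT at -79 to -75 (other strand) and at -54 to -50. Among 6 members with RefSeq windows (7 windows of 300 bases, 250 before the start), TTTGAA on either strand was in those of BUB1B, MAD2L1 and MAD2L1BP, and in 15.2% of all 35116 windows. TTTAAA, the other CHR form searched, was in 0 of the 7 and in 12.2% of all windows. CCAAT was in those of BUB1 and MAD2L1 and in 34.6% of all. The E2F letters TTTCGCGC, TTTGGCGC, TTCCCGCC and TTGGCGCC were in 0 of the 7, and in 0.515%, 0.652%, 3.16% and 1.02% of all windows in that order. GGCGG, like the CDE element beside a CHR, was in all 7 windows and in 59.0% of all. These are matches of letters on both strands. The matches of different motifs did not share bases in the stretches shown.

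BUB3, the adaptor that carries BUB1 and BUBR1 to KNL1 (ENSG00000154473, chromosome 10, 123154277 to 123170467, plus strand), was the most abundant member in every library. At 16 h it was at 278 and 286 FPKM in solvent, 189 and 211 FPKM with 20 nM and 161 and 169 FPKM with 100 nM, so each step in dose was lower without overlap. At 24 h it was at 295 and 277 FPKM in solvent, 263 and 239 FPKM with 20 nM and 233 and 229.8 FPKM with 100 nM, again in order of dose and closer together. The log2 change at 16 h was -0.49 with 20 nM (SE 0.06, limma adjusted p = 0.00131) and -0.77 with 100 nM (SE 0.06, limma adjusted p = 7.14e-05). At 24 h it fell by 0.30 on the log2 scale with 100 nM (SE 0.06, limma adjusted p = 0.00690), and the change of -0.19 with 20 nM did not pass (SE 0.06, limma adjusted p = 0.0568). The 100 nM effect at 24 h minus that at 16 h was 0.47 (SE 0.09, limma adjusted p = 0.0154), and the same difference for 20 nM was 0.31 and did not pass (SE 0.09, limma adjusted p = 0.0603). The solvent groups overlapped each other, and every drug group lay below both. The call for 100 nM at 24 h ended without library 11 (limma adjusted p = 0.0523), and that between times for 100 nM without library 6, 9 or 12 (0.0544 to 0.0591). The pseudogene BUB3P1 was listed at 0 in all libraries.

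TTK, the kinase at the head of the pathway (ENSG00000112742, chromosome 6, 80003887 to 80042527, plus strand), was at 44.2 and 38.6 FPKM in solvent, 30.9 and 31.0 FPKM with 20 nM and 35.5 and 34.6 FPKM with 100 nM at 16 h. The 24 h levels were 40.4 and 42.9 FPKM in solvent, 34.2 and 37.2 FPKM with 20 nM and 23.2 and 25.4 FPKM with 100 nM. The lowest group at 16 h was thus 20 nM and the lowest at 24 h was 100 nM, with all drug libraries below the solvent libraries of their time. The log2 change with 20 nM was -0.41 at 16 h (SE 0.07, limma adjusted p = 0.00636) and -0.22 at 24 h (SE 0.07, limma adjusted p = 0.0526), the second not passing. With 100 nM it was -0.23 at 16 h (SE 0.07, limma adjusted p = 0.0498) and -0.76 at 24 h (SE 0.07, limma adjusted p = 1.47e-04). TTK was the single member with a called difference between doses: at 24 h it averaged 24.3 ± 1.56 FPKM with 100 nM and 35.7 ± 2.13 FPKM with 20 nM (SD, n = 2 each), a log2 change of -0.54 (SE 0.07, limma adjusted p = 0.00858), where 4.88% of all tested genes passed (1.82% higher and 3.06% lower, a share of 37.3% higher that was 82.8% on a common sum and 57.3% with median-of-ratios scaling). At 16 h 0 members and 0.320% of all tested genes (0.0446% higher and 0.275% lower, 6 of 43 higher, and 2 of 59 on a common sum) were called between doses in limma, although BUB3 and TTK had unadjusted p-values of 0.00211 and 0.0379 there. The 100 nM effect on TTK at 24 h minus that at 16 h was -0.53 (SE 0.10, limma adjusted p = 0.0156).

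Of these TTK calls, that of 100 nM at 16 h was the least firm. It was not called without library 1, 2, 3, 4, 5, 9, 10, 11 or 12 (limma adjusted p 0.0546 to 0.279, with a log2 change of -0.13 without library 5), nor with a pseudocount of 0.1, without a filter, with median-of-ratios scaling, with a constant prior or in the 16 h libraries alone (0.0501 to 0.107). The difference between doses at 24 h ended without library 8 or 9 (0.0517 and 0.0772) and in the 24 h libraries alone (0.0697), and that between times without library 9 or 12 (0.0599 and 0.0601).

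**Figure D2:**
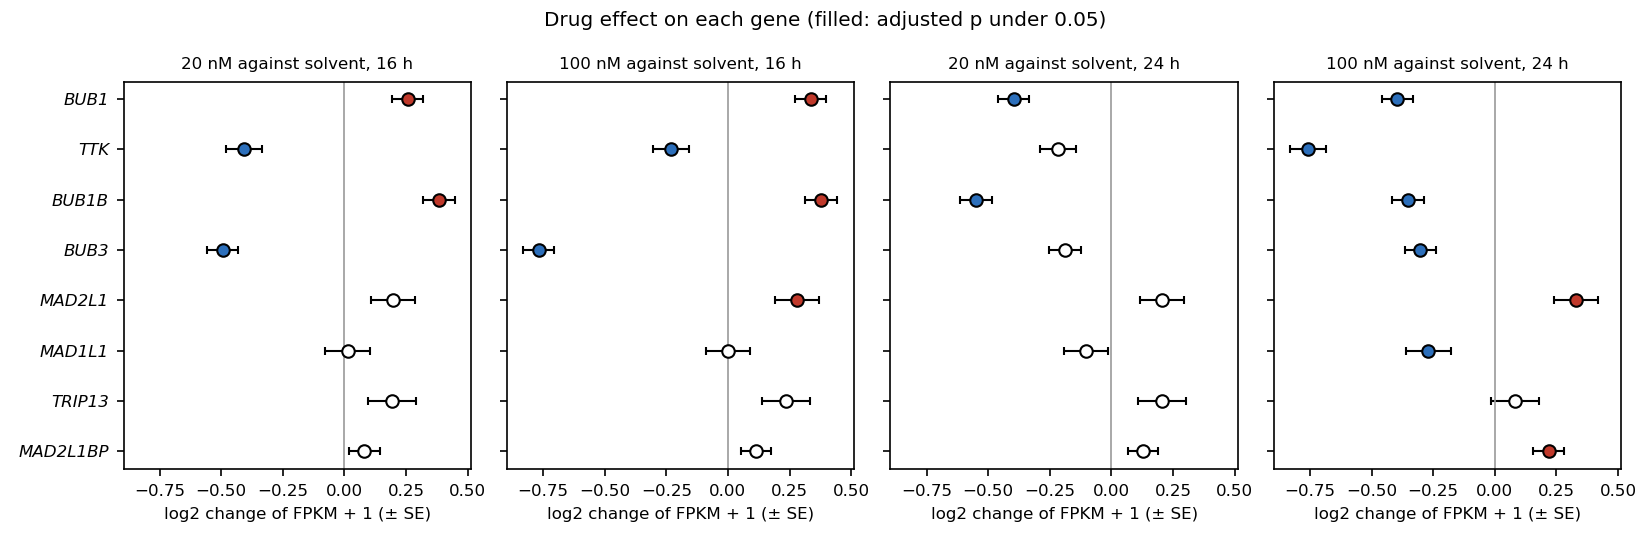
Log2 change of FPKM + 1 with its standard error for the 8 members in the 4 comparisons with solvent, filled where the limma adjusted p was under 0.05 (red higher, blue lower) and open otherwise. BUB1 and BUB1B change sign between 16 h and 24 h, BUB3 and TTK are negative in all 4, and MAD2L1 is positive in all 4.

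MAD2L1, which encodes MAD2, the protein converted to its closed form on the MAD1 template (ENSG00000164109, chromosome 4, 120055608 to 120067074, minus strand), was at 50.3 and 47.2 FPKM in solvent, 56.0 and 56.0 FPKM with 20 nM and 63.5 and 55.7 FPKM with 100 nM at 16 h. After 24 h it was at 38.7 and 36.4 FPKM in solvent, 47.3 and 39.9 FPKM with 20 nM and 49.5 and 45.3 FPKM with 100 nM. Every drug library exceeded both solvent libraries of its time, while the doses overlapped each other. The log2 change was 0.20 with 20 nM at 16 h (limma adjusted p = 0.164) and 0.21 at 24 h (limma adjusted p = 0.117), neither passing, and 0.28 with 100 nM at 16 h (SE 0.09, limma adjusted p = 0.0485) and 0.33 at 24 h (SE 0.09, limma adjusted p = 0.0207), both passing. In solvent the level was lower at 24 h, at 37.5 ± 1.58 FPKM, than at 16 h, at 48.8 ± 2.25 FPKM (SD, n = 2 each), a log2 change of -0.37 (SE 0.09, limma adjusted p = 0.0474). The effects at 24 h minus those at 16 h were 0.01 for 20 nM (SE 0.13, limma adjusted p = 0.977) and 0.05 for 100 nM (SE 0.13, limma adjusted p = 0.848), so no change of effect with time was detected.

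The calls of MAD2L1 ended in many alternative runs. Leaving out a library outside the groups compared did not move the log2 change (0.28 for 100 nM at 16 h and -0.37 between solvent groups). In those runs the shared estimate of spread and the adjustment differed. For 100 nM at 16 h the call ended without library 1, 2, 3, 5, 6, 9, 10, 11 or 12 (limma adjusted p 0.0593 to 0.248), without a filter, on rescaling to a common sum or with a constant prior (0.0688 to 0.117). At 24 h it ended without library 9, 11 or 12 (0.0507 to 0.124), without a filter, on rescaling or in the 24 h libraries alone (0.0535 to 0.0877), and between solvent groups without library 1, 2, 5, 6, 9, 10, 11 or 12 (0.0665 to 0.217) and without a filter, on rescaling or with a constant prior (0.0728 to 0.111). An antisense gene that overlaps the start of MAD2L1, AC108866.1, was at 0 to 0.300 FPKM.

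MAD1L1, which encodes the MAD1 template (ENSG00000002822, chromosome 7, 1815793 to 2233243, minus strand), was the least abundant member and moved little. At 16 h it was at 21.4 and 23.6 FPKM in solvent, 22.0 and 23.3 FPKM with 20 nM and 21.7 and 23.3 FPKM with 100 nM, with all groups overlapping. For 24 h the values were 27.6 and 24.2 FPKM in solvent, 22.1 and 26.1 FPKM with 20 nM and 21.5 and 21.0 FPKM with 100 nM. Only the last comparison passed, with a log2 change of -0.27 (SE 0.09, limma adjusted p = 0.0475). That call ended without library 1, 2, 3, 4, 5, 6, 9, 10 or 11 (0.0529 to 0.254, with a log2 change of -0.18 without library 11), without a filter, with median-of-ratios scaling, with a constant prior or in the 24 h libraries alone (0.0617 to 0.109).

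TRIP13, the ATPase that remodels MAD2 (ENSG00000071539, chromosome 5, 892643 to 919357, plus strand), was at 54.4 and 59.4 FPKM in solvent, 67.8 and 62.5 FPKM with 20 nM and 59.7 and 75.2 FPKM with 100 nM at 16 h. The levels at 24 h were 59.3 and 56.1 FPKM in solvent, 64.2 and 69.2 FPKM with 20 nM and 60.5 and 61.5 FPKM with 100 nM. All 8 drug libraries were above the solvent libraries of their own time, by 0.08 to 0.23 on the log2 scale for the group means, with limma adjusted p of 0.118 to 0.562. On rescaling to a common sum the change with 100 nM at 24 h was -0.01. The 100 nM libraries at 16 h were the farthest apart of any pair of TRIP13 replicates, and without library 3 that comparison passed (limma adjusted p = 0.0141). With 20 nM at 24 h TRIP13 passed without library 3 or 4, which are not in that comparison and left its log2 change at 0.21. Under the alternatives that kept all libraries of that time, the same change was 0.02 to 0.21 and did not pass. BRD9, which overlaps the start of TRIP13 on the opposite strand, was at 23.6 to 31.8 FPKM, and the strand setting of the counting is not given in the sources used here. BRD9 rose with 100 nM at 16 h (0.28, limma adjusted p = 0.0163). At 24 h it rose with 20 nM (0.22, limma adjusted p = 0.0369) and 100 nM (0.21, limma adjusted p = 0.0354). Its change of 0.15 with 20 nM at 16 h did not pass (limma adjusted p = 0.151). Whether its reads entered the level of TRIP13 was not tested.

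MAD2L1BP, the adaptor of TRIP13 (ENSG00000124688, chromosome 6, 43629540 to 43640952, plus strand), stayed between 36.3 and 45.5 FPKM in all libraries. At 24 h it was at 36.3 and 41.6 FPKM in solvent, 41.8 and 43.4 FPKM with 20 nM and 45.3 and 45.5 FPKM with 100 nM, in order of dose and without overlap. The change with 100 nM at 24 h passed, at 0.22 on the log2 scale (SE 0.06, limma adjusted p = 0.0250), and the other drug changes were 0.08 to 0.13 and did not pass (limma adjusted p 0.155 to 0.408). The call ended without library 9, 10 or 11 (0.0920 to 0.150, with a log2 change of 0.12 without library 11) and without a filter, on either rescaling or in the 24 h libraries alone (0.0517 to 0.140). On rescaling to a common sum the log2 change with 100 nM at 24 h was 0.13 and that with 20 nM was -0.06.

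**Figure D3:**
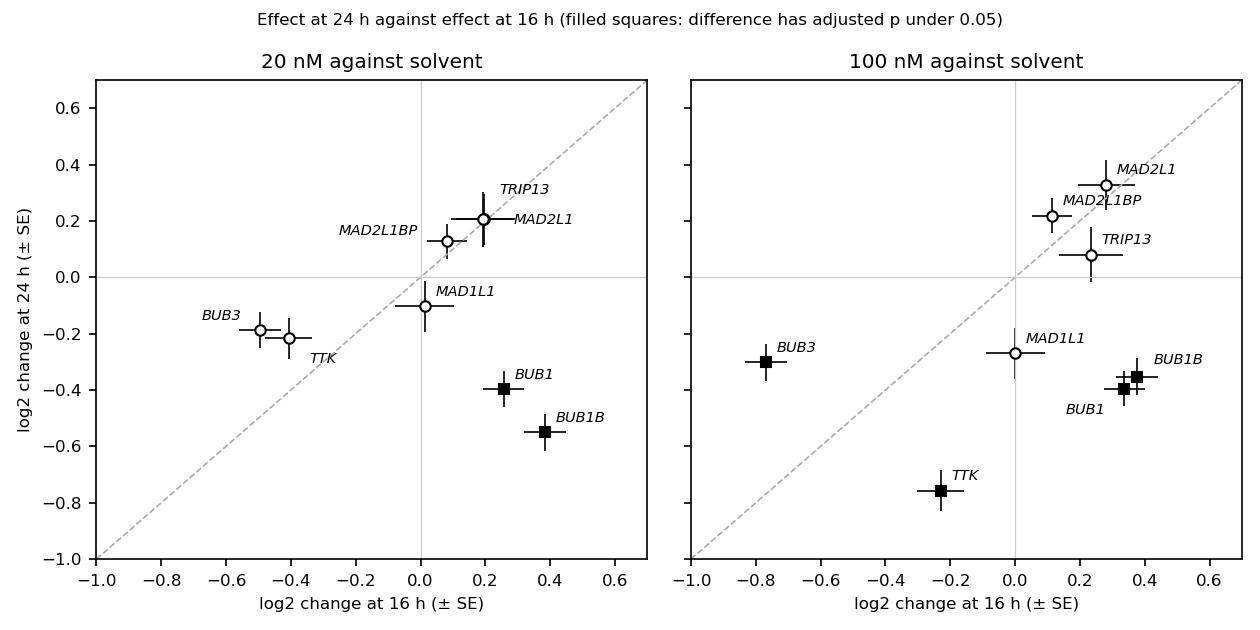
Log2 change against solvent at 24 h (vertical) plotted against that at 16 h (horizontal), each with its standard error, for 20 nM (left) and 100 nM (right). Filled squares mark members whose effect differed between times at a limma adjusted p under 0.05, which are BUB1 and BUB1B at both doses and BUB3 and TTK at 100 nM, and the dashed line is where the effects at both times are equal.

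Over all tested genes, the effect differed between times for 11.5% at 20 nM (7.06% higher and 4.46% lower at 24 h) and 10.2% at 100 nM (5.87% higher and 4.29% lower), and for 2 and 4 of the 8 members. The share higher was 61.3% at 20 nM and 57.7% at 100 nM, against 14.1% and 37.8% on a common sum. At 20 nM the members were BUB1 and BUB1B. At 100 nM BUB3 was closer to solvent at 24 h, TTK was farther below it, and BUB1 and BUB1B had crossed it. The count for 100 nM was 2 without library 9 or 12.

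Mitochondrially encoded genes took 23.8% and 25.8% of the FPKM sum with 20 nM at 24 h, against 17.9% and 18.6% in solvent at that time. With 100 nM at 24 h the share was 18.8% and 20.7%. The 16 h libraries were at 21.6% to 24.5%, those of solvent at 21.6% and 22.2%. On rescaling to a common sum outside mitochondrial genes, an alternative chosen after the data were seen, the log2 change of 20 nM at 24 h was -0.46 for BUB1 and -0.62 for BUB1B, and BUB3 (-0.26, limma adjusted p = 0.0157) and TTK (-0.28, limma adjusted p = 0.0195) passed as well. Rescaling to a common sum of all genes moved the median of all tested genes in that comparison to -0.16, from which BUB1 (-0.58), BUB1B (-0.74), BUB3 (-0.37) and TTK (-0.40) stood lower still, while MAD2L1 was at 0.02. Under that rescaling 5 members were called lower with 20 nM at 24 h, MAD1L1 (-0.28, limma adjusted p = 0.0397) being the fifth. Of all 13458 tested genes 5235 were called there, 4662 of them lower, against 3880 and 1896 as deposited. Without library 8 and as deposited, the log2 change with 20 nM at 24 h was 0.33 for MAD2L1 and -0.28 for TTK.

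Levels can also be compared between members that act in one complex. BUB1 and BUB1B both bind BUB3, and at 16 h the ratio of BUB1 to BUB3 FPKM was 0.250 and 0.230 in solvent, 0.431 and 0.382 with 20 nM and 0.521 and 0.517 with 100 nM. The ratio of BUB1B to BUB3 was 0.246 and 0.239 in solvent, 0.476 and 0.422 with 20 nM and 0.550 and 0.529 with 100 nM. Both ratios were thus higher at each step of dose at 16 h, without overlap. At 24 h the BUB1 to BUB3 ratio was 0.250 and 0.276 in solvent, 0.202 and 0.254 with 20 nM and 0.250 and 0.241 with 100 nM, and the groups overlapped. The BUB1B to BUB3 ratio at 24 h was 0.331 and 0.319 in solvent, 0.224 and 0.282 with 20 nM and 0.305 and 0.322 with 100 nM. With 20 nM it thus lay below solvent without overlap, opposite to 16 h, and with 100 nM it overlapped solvent. Within each library BUB1 stood at 0.749 to 1.02 times BUB1B. MAD2L1 stood at 1.40 to 2.93 times MAD1L1, and that ratio at 24 h averaged 2.23 ± 0.10 with 100 nM and 1.45 ± 0.074 in solvent (SD, n = 2 each). These ratios are given as descriptions, with no test.

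**Figure D4:**
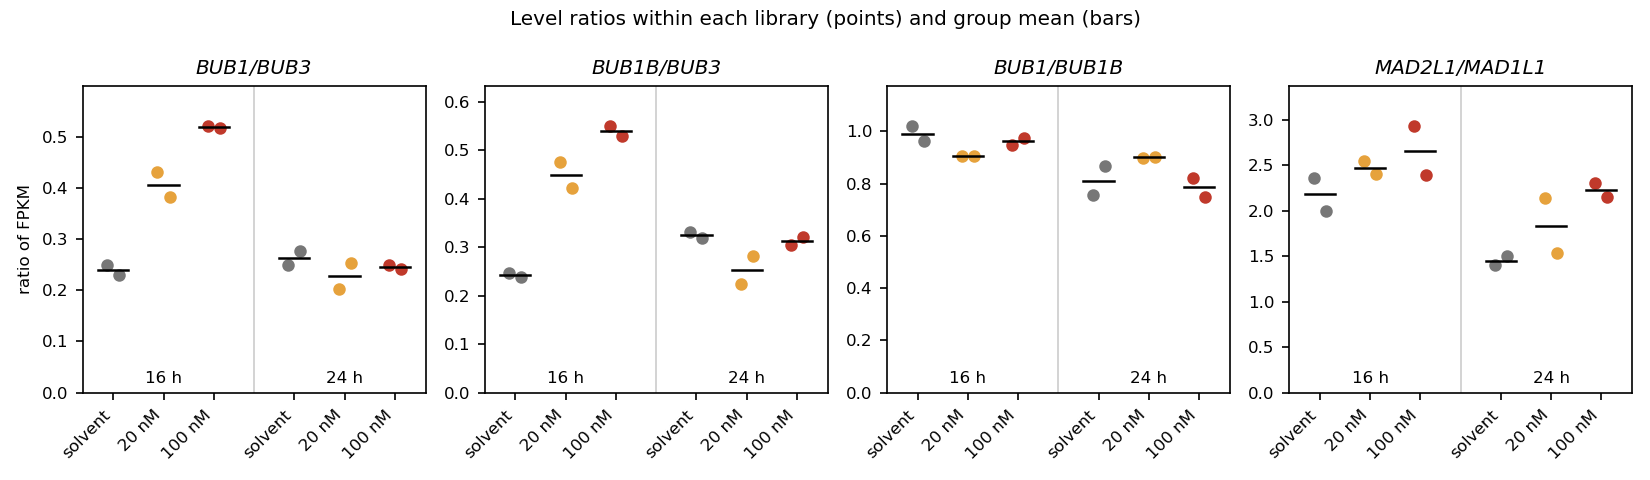
Ratio of FPKM values within each library (points) and group mean (bars) for BUB1 to BUB3, BUB1B to BUB3, BUB1 to BUB1B and MAD2L1 to MAD1L1. The ratios to BUB3 are higher at each dose at 16 h, at 0.519 for BUB1 and 0.540 for BUB1B with 100 nM, and lie between 0.202 and 0.331 at 24 h.

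Among 9461 other genes with a mean of at least 5 FPKM, those whose centred log2 profile over the 12 libraries lay closest to a member were VANGL1, DEPDC1 and TACC3 for BUB1, at root mean square differences of 0.047, 0.066 and 0.070. For BUB1B they were PRR11 (0.083), IQSEC1 (0.098) and KIF18B (0.101). For BUB3 they were AHDC1 (0.061), PPP1R9B (0.069) and ELMSAN1 (0.071), and for TTK they were GPHN (0.080), FBXO34 (0.091) and KIF11 (0.097). MAD2L1 lay closest to TRMT1 (0.046), RMDN3 (0.052) and TRPM2 (0.061). MAD1L1 lay closest to MED1 (0.059), MDM2 (0.061) and PPP6R3 (0.065), and MAD2L1BP to RPS13 (0.044), HM13 (0.045) and RPS18 (0.045), but both members varied little over the libraries themselves (SD 0.116 for MAD1L1 and 0.102 for MAD2L1BP on the log2 scale). All profiles come from the same libraries and share their scaling.

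The 25 checkpoint neighbours listed besides the members comprise the kinetochore platform, the RZZ complex and Spindly, the target CDC20 and its regulators, shugoshins, kinases and partners of MAD1 and BUB3. Of these 24 were tested, USP44 being at 0.0200 to 0.0600 FPKM. Counts of neighbours called higher and lower were 5 and 5 with 20 nM at 16 h, 6 and 5 with 100 nM at 16 h, 5 and 6 with 20 nM at 24 h and 3 and 8 with 100 nM at 24 h, the same comparisons in which 17.7%, 23.8%, 28.8% and 33.8% of all tested genes passed. Their median log2 changes were 0.04, 0.12, -0.07 and -0.09 in that order. CDC20, the activator of the anaphase-promoting complex that the checkpoint captures, was at 308 and 304 FPKM in solvent, 459 and 468 FPKM with 20 nM and 502 and 460.5 FPKM with 100 nM at 16 h. It rose by 0.60 with 20 nM and 0.65 with 100 nM on the log2 scale at 16 h (limma adjusted p = 5.19e-04 and 1.81e-04) and by 0.35 with 100 nM at 24 h (limma adjusted p = 0.00343). With 20 nM at 24 h its change of -0.09 did not pass (limma adjusted p = 0.329), though it did on rescaling to a common sum (-0.28, 0.0152) and without library 7 (-0.19, 0.0450).

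The mitotic kinase PLK1 rose at 16 h (0.45 with 20 nM, limma adjusted p = 8.77e-05, and 0.65 with 100 nM, limma adjusted p = 6.81e-06) and fell at 24 h (-0.45 with 20 nM, limma adjusted p = 1.04e-04, and -0.17 with 100 nM, limma adjusted p = 0.00628). SGO2, a protector of centromeric cohesin, likewise rose at 16 h (0.44 with 20 nM, limma adjusted p = 0.00202, and 0.61 with 100 nM, limma adjusted p = 2.28e-04) and fell at 24 h (-0.31 with 20 nM, limma adjusted p = 0.0065, and -0.33 with 100 nM, limma adjusted p = 0.00394). PLK1 and SGO2 thus had the same signs as BUB1 and BUB1B in all 4 drug comparisons. So did NDC80, NUF2, KNL1 and SGO1, with fewer of these changes called. For NDC80 the changes were 0.19 and 0.37 at 16 h and -0.17 and -0.11 at 24 h, each for 20 nM and then 100 nM. As with BUB1B, solvent cultures had more PLK1 at 24 h than at 16 h (log2 change 0.21, limma adjusted p = 0.0181). SPDL1, which encodes Spindly, a dynein adaptor at kinetochores, rose at 16 h (0.46 with 20 nM, limma adjusted p = 0.00146, and 0.47 with 100 nM, limma adjusted p = 8.81e-04), and its changes of 0.01 with 20 nM and 0.05 with 100 nM at 24 h did not pass (limma adjusted p = 0.891 and 0.560). AURKB, the Aurora kinase of the chromosomal passenger complex, fell in all 4 drug comparisons, by 0.58, 0.46, 0.61 and 0.96 on the log2 scale for 20 nM and 100 nM at 16 h and then 20 nM and 100 nM at 24 h (limma adjusted p 1.94e-04, 4.66e-04, 1.49e-04 and 8.47e-06). SPC25, a subunit of the NDC80 complex that binds microtubules, fell in all 4 as well (log2 changes -0.45, -0.37, -0.47 and -0.67, limma adjusted p 1.01e-04 to 0.00282). HASPIN, a histone H3 kinase, also fell in all 4, by 0.28 with 20 nM and 0.44 with 100 nM at 16 h and by 0.25 with 20 nM and 0.34 with 100 nM at 24 h (limma adjusted p 2.88e-04 to 0.00523). KNL1, the scaffold that TTK phosphorylates, fell with 100 nM at 24 h (-0.63, limma adjusted p = 0.00202). Its change of -0.26 with 20 nM at 24 h did not pass (limma adjusted p = 0.0890), except on rescaling to a common sum (-0.44, 0.00778) and without library 8 (-0.44, 0.00612), and its changes at 16 h were 0.07 with 20 nM and 0.11 with 100 nM (limma adjusted p = 0.689 and 0.485).

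The neighbours with the largest changes per direction included 5 others. NDC80, NUF2, ZWINT, TPR and ZW10 were called in drug comparisons too, but not among the 3 largest of their direction. With 100 nM at 16 h NDC80 rose by 0.37 (limma adjusted p = 0.00167) and NUF2 by 0.36 (limma adjusted p = 0.00387). In that comparison ZWINT (-0.21, limma adjusted p = 0.0217) and TPR (-0.23, limma adjusted p = 0.0314) fell. ZWINT also fell with 20 nM at 16 h (-0.26, limma adjusted p = 0.0118) and 100 nM at 24 h (-0.24, limma adjusted p = 0.00851). ZW10 rose with 20 nM at 24 h (0.18, limma adjusted p = 0.0422). KNTC1, a subunit of the RZZ complex, fell with 20 nM at 16 h (-0.29, limma adjusted p = 0.0277) and with 100 nM at 24 h (-0.28, limma adjusted p = 0.0182). The mRNA export factor RAE1 rose at 24 h with 20 nM (0.31, limma adjusted p = 0.0111) and 100 nM (0.26, limma adjusted p = 0.0191), and so did MAD2L2, a relative of MAD2 that serves in translesion synthesis (0.20, limma adjusted p = 0.0126, and 0.15, limma adjusted p = 0.0330). ZNF207, which encodes BuGZ, a chaperone of BUB3, and CEP57 rose with 20 nM at 24 h (0.27, limma adjusted p = 0.0333, and 0.28, limma adjusted p = 0.0471). For ZNF207 the change with 100 nM at 24 h was 0.22 and did not pass (limma adjusted p = 0.0606), except with median-of-ratios scaling, in the 24 h libraries alone or without library 3, 4, 5 or 6 (0.0301 to 0.0463). The 6 increases of RAE1, MAD2L2, ZNF207 and CEP57 at 24 h ended on rescaling to a common sum. There the log2 change with 20 nM was 0.12 for RAE1, 0.01 for MAD2L2, 0.08 for ZNF207 and 0.09 for CEP57. With 100 nM it was 0.17 for RAE1 and 0.06 for MAD2L2. With 20 nM these increases also ended without library 7 or 11 for RAE1 and without library 11 for MAD2L2. For ZNF207 they ended without library 7, 8 or 11. For CEP57 they ended without library 1, 2, 5, 6, 8, 9, 10, 11 or 12 (0.18 without library 8). With 100 nM they ended without library 9, 11 or 12 for RAE1 and without library 9, 10, 11 or 12 for MAD2L2. The calls of KNTC1 ended without library 1, 2, 5 or 6 (0.0861 to 0.129) or a filter (0.0624) with 20 nM at 16 h, and without library 9 or 12 (0.122 and 0.123) or in the 24 h libraries alone (0.0750) with 100 nM at 24 h.

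**Figure D5:**
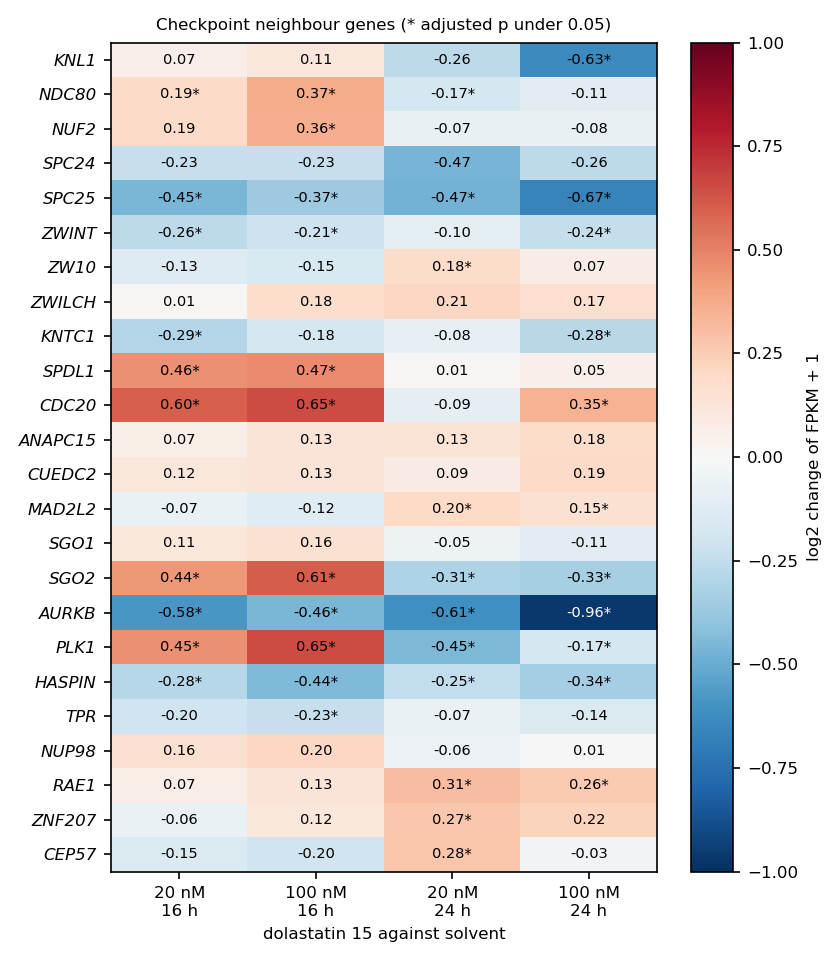
Log2 change of FPKM + 1 against solvent for the 24 tested checkpoint neighbours in the 4 drug comparisons, coloured from blue (lower) to red (higher), with an asterisk where the limma adjusted p was under 0.05. AURKB and SPC25 are lower in all 4, and CDC20 is higher in 3 of the 4.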

How the data were processed

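The authors deposited 1 table of FPKM per gene and library, rounded to 2 decimals, for 12 libraries; RSEM 1.2.28 and GRCh38 are named in the submitters' processing notes. Per the labels' protocols, libraries were directional and made from poly(A) RNA out of 1000 ng of total RNA with an integrity number of at least 7. Aligner, annotation release and strand setting: not given in the sources used here. GENCODE 29 gave a symbol to 57836 of 58174 identifiers.

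Tests used log2(FPKM + 1), a scale that understates the changes of low genes, with limma 3.58.1 (R 4.3.3): group means of the 6 groups, empirical Bayes moderation with an intensity trend (6 residual and 2.98 prior degrees of freedom), and 9 two-sided contrasts, each adjusted over 13458 genes. The fit was tested on simulated data. Reads were not recovered from the FPKM values. Where a library was left out, the lone sample of its group was assumed to vary like the other groups. The alternatives were other pseudocounts, filters, scalings and priors, each time alone, and each library left out.

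The members, lists and tests were chosen with earlier results of these data known. The text names all members and the 3 genes most alike to each called member. Of the neighbours it describes at most 3 higher and 3 lower per drug comparison, the largest changes among those called. Each of these is given with its other calls against solvent, and further called neighbours are named more briefly. Calls of neighbours between doses or between times are mostly left out. Genes that overlap a member are named for that reason. Protein sequences were not used here.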

Additional observations from a re-analysis of the deposited data

Results flagged for a closer look

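The drug effect on 4 members differed between 16 h and 24 h by the test of the difference itself (limma, adjusted over all tested genes), as the effect at 24 h minus that at 16 h on the log2 scale. These were 2 members at 20 nM and 4 at 100 nM, where 11.5% and 10.2% of all tested genes passed. For BUB1 the difference was -0.65 with 20 nM and -0.73 with 100 nM, for BUB1B -0.93 with 20 nM and -0.73 with 100 nM. For BUB3 it was 0.47 with 100 nM, and for TTK -0.53 with 100 nM. Leaving out some single libraries ended the calls of BUB3 and TTK, as given above. In BUB1 and BUB1B all treated libraries lay above solvent at 16 h and below it at 24 h (4 of 4 at each time), and the solvent level of BUB1B was itself higher at 24 h. Groups of 2 libraries are too small for a test of single outlying libraries.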

How the results depend on the processing

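Over 1488 combinations of a member, a comparison and an alternative, 1385 stayed on the same side of the threshold. Of the rest 80 lost a call, 23 gained one and 0 reversed a call. Among the 1385 were 906 in which the member was called in neither setting, and 48 of these changed sign. Counts over all tested genes moved too, and the filters also change how many genes are tested. For 100 nM at 16 h, 3205 genes were called, and 2466 without a filter and 3038 with a constant prior. For 20 nM at 24 h, 3880 were called, and 3550 with a minimum of 5 FPKM. On a common sum 5235 were called there, and 4016 on a common sum outside mitochondrial genes. For 100 nM at 24 h, 4550 were called, and 3818 without a filter and 3349 in that time alone. For 100 nM at 16 h, 5 members were called, and 3 without a filter, 3 with a constant prior and 3 to 5 leaving out 1 library. For 20 nM at 24 h, 2 were called, and 4 with a minimum of 5 FPKM, 5 on a common sum, 4 on a common sum outside mitochondrial genes and 2 to 4 leaving out 1 library. For 100 nM at 24 h, 7 were called, and 4 without a filter, 4 in that time alone and 3 to 7 leaving out 1 library. Between doses at 24 h, 1 was called, and 2 on a common sum, 0 in that time alone and 0 to 1 leaving out 1 library (0 without library 8 or 9). Between solvent groups, 2 were called, and 1 without a filter, 1 on a common sum, 1 with a constant prior and 0 to 2 leaving out 1 library (0 without library 5, 6 or 11, 1 without library 1, 2, 9, 10 or 12). For the 100 nM effect between times, 4 were called, and 2 to 4 leaving out 1 library.

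Over all tested genes, 43 were called between doses at 16 h (28 with a constant prior, 10 in that time alone, 15 to 65 leaving out 1 library) and 657 at 24 h (334 without a filter, 411 with a constant prior, 9 in that time alone, 42 to 1511 leaving out 1 library). Between solvent groups the count was 756 (326 without a filter, 1187 on a common sum, 23 to 1437 leaving out 1 library). For the effect between times it was 1550 with 20 nM (1008 without a filter, 2462 on a common sum, 705 to 1753 leaving out 1 library) and 1368 with 100 nM (632 to 1787). Leaving out 1 library gave 1036 to 2774 with 20 nM and 1781 to 3615 with 100 nM at 16 h, and 2153 to 3765 with 20 nM and 2757 to 5005 with 100 nM at 24 h. The cause of these differences was not tested.

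Rescaling to a common sum moved the median log2 change of all tested genes to -0.16 for 20 nM at 24 h, against 0.00 as deposited. There the neighbour SPDL1 was at -0.17 and called (limma adjusted p = 0.0386), against 0.01 and not called as deposited. No paired analysis was possible because the columns carry no sample number of the labels. Read depth is unknown, so the counting error behind each FPKM value cannot be given.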
